A study of Mus musculus with 12 samples.

Results

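The glucocorticoid receptor with its chaperones and cofactors was described by 10 genes, chosen by name for their role, with earlier results of these data known. All 10 were found among the 54838 genes counted in the ileum and among the 15938 genes with enough reads to test. They are the receptors Nr3c1 and Nr3c2, the HSP90 genes Hsp90aa1 and Hsp90ab1, the cochaperones Fkbp4, Ptges3 and Stip1, the coactivators Ncoa1 and Ncoa2, and the corepressor Ncor1. RNA was sequenced from the ileum, the last stretch of the small intestine, of female C57BL/6J mice aged 8 to 14 weeks. The mice drank normal water or water with 25 mM ZnSO4 for 7 days, then received an injection of PBS or of 200 µg dexamethasone (Dex), a synthetic glucocorticoid, and were sampled 2 h later. The groups water + PBS, water + Dex, ZnSO4 + PBS and ZnSO4 + Dex held 3 mice each, 1 library a mouse. The whole tissue was sequenced, so that fewer cells of a type and less RNA per cell cannot be told apart.

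The glucocorticoid receptor (GR) waits for its hormone in the cytoplasm, folded and held open by HSP90 and a relay of cochaperones. Bound GR moves to the nucleus, binds DNA as a dimer or next to other factors, and recruits coactivators or corepressors. Its own gene is a known target of glucocorticoids, and the mineralocorticoid receptor, its closest relative, binds the same endogenous hormones.

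Total counts per library lay between 10760132 and 11827487. All 7 genes known to be induced by Dex rose with it on the mean over both drinking waters (LFC between 2.13 and 4.25), and the 8 enterocyte markers were detected in all libraries. ZnSO4 + Dex replicate 2 stood apart, with a summed enterocyte level of 11946 CPM (counts scaled to library size) against 17109 to 25509 in the other 11 libraries. Its counts also differed more from its group mates (chi-square 29.3 and 45.3 times the degrees of freedom) than in any other pair of libraries of a group (8.30 to 20.3). Without it, 4 members were called in the mean Dex effect (20.98% of all genes), 3 in the mean ZnSO4 effect (12.4%), 1 with Dex in water mice (11.4%), 2 with Dex in ZnSO4 mice (11.5%) and 2 with ZnSO4 in PBS mice (6.19%). Counts of the 10 members were never under 475 reads in a library. The 7 B cell markers differed widely between mice of the same group, with summed levels between 10.8 and 581 CPM, and T cell markers differed between the drinking waters, from 145 to 299 CPM in the 6 water mice and from 61.0 to 87.3 CPM in the 6 ZnSO4 mice. LFC stands for log2 fold change, SE for its standard error, and a gene was called up- or downregulated at an adjusted p under 0.05 (edgeR's quasi-likelihood test, Benjamini-Hochberg over all 15938 genes). Normalised counts are reads scaled to the mean library size.

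**Figure D1:**
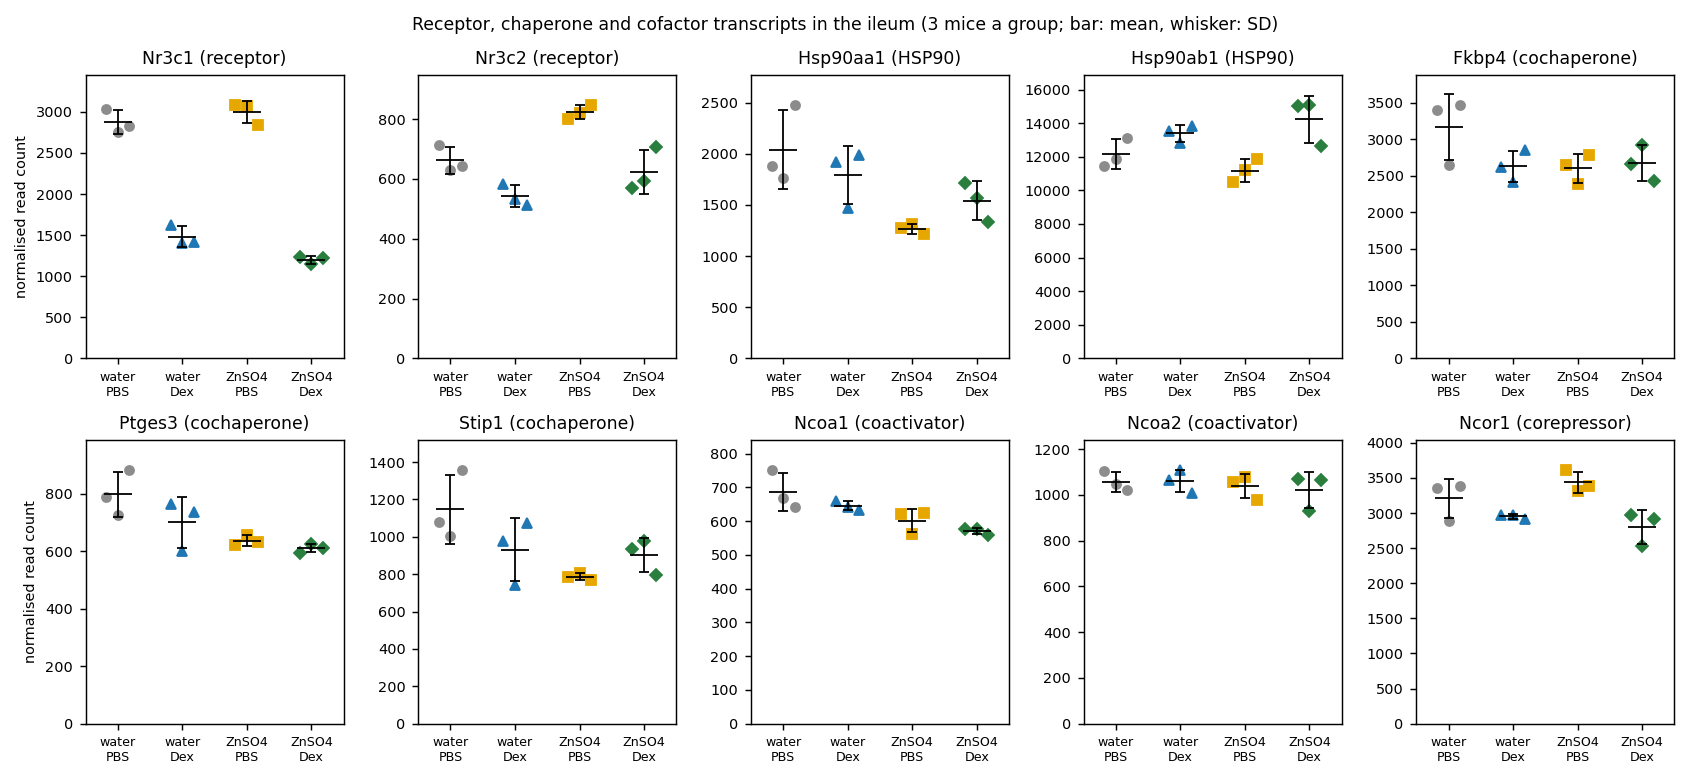
Normalised read counts (y axis, from 0) of the 10 members in the 4 groups (x axis), 1 point a mouse, with the group mean and SD. Nr3c1 lies between 2757 and 3084 in the 6 PBS mice and between 1145 and 1624 in the 6 Dex mice, while Ncoa2 lies between 931 and 1108 in all 12.

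The members called are set beside the share of all tested genes called in the same comparison. Dex in water mice called 1 of 10 members against 9.93% of all genes, and Dex in ZnSO4 mice called 4 against 13.7%. The mean Dex effect called 4, of them 3 lower, against 21.5% of all genes called and 11.2% called lower. ZnSO4 in PBS mice called 1 against 4.66%, and ZnSO4 in Dex mice called 0 against 4.37% by edgeR, with 3 members at an unadjusted p under 0.05 and 1 called by DESeq2. The mean ZnSO4 effect called 4, of them 3 lower, against 12.8% of all genes called and 6.52% called lower. For the interaction edgeR called 0 members and 0% of all genes, with 3 members (Nr3c1, Hsp90aa1 and Stip1) at an unadjusted p under 0.05 and 0 members called by DESeq2. In edgeR with another scaling of the libraries (RLE factors), 762 of 15938 genes had an unadjusted p under 0.05 for the interaction. With ZnSO4 in Dex mice they were 3010 of 15938. Groups did not overlap for 2 members with Dex in water mice (29.7% of all genes), 5 with Dex in ZnSO4 mice (29.1%) and 5 with ZnSO4 in PBS mice (25.3%). The median LFC of the members was -0.10 for the mean Dex effect and -0.13 for the mean ZnSO4 effect, beside medians of -0.0014 and -0.0046 over all tested genes.

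**Figure D2:**
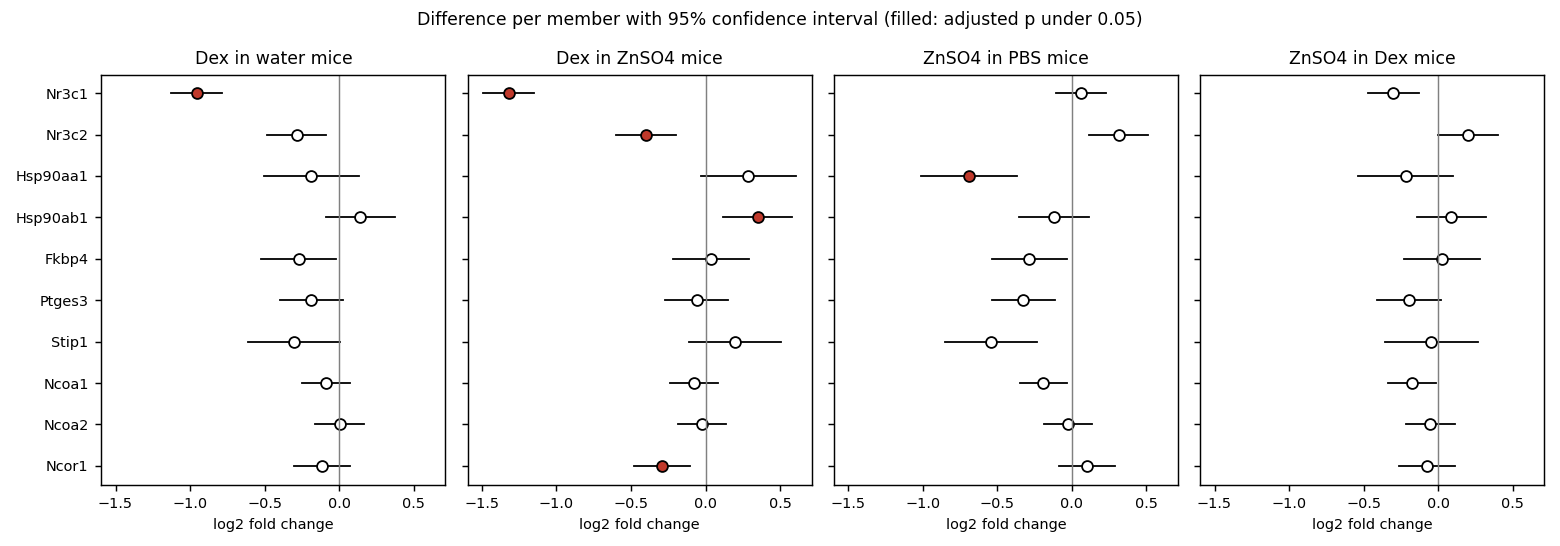
LFC (x axis) of each member (y axis) in the 4 comparisons of single groups, with 95% confidence intervals. Points are filled where adjusted p was under 0.05. Nr3c1 lies farthest from 0 with Dex in both waters, at -0.96 and -1.32, and Hsp90aa1 with ZnSO4 in PBS mice, at -0.69.

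Nr3c1 (ENSMUSG00000024431), the gene of GR itself, had fallen in every mouse 2 h after Dex. It spans 39410545 to 39519421 on the minus strand of chromosome 18 (GRCm38). The water + PBS mice had 3037, 2757 and 2825 normalised counts, and the water + Dex mice had 1624, 1407 and 1413. The ZnSO4 + PBS mice had 3084, 3073 and 2839, and the ZnSO4 + Dex mice had 1239, 1145 and 1222. Every Dex mouse lay below every PBS mouse, and the ZnSO4 + Dex mice were the lowest of all. Nr3c1 was downregulated by Dex in water mice (LFC -0.96, SE 0.08, adjusted p = 1.56e-05), where it fell by 48.4%, and in ZnSO4 mice (LFC -1.32, SE 0.08, adjusted p = 1.49e-06), where it fell by 59.9%. These contrasts share no libraries, and both calls held in each of the 12 fits that left out 1 library.

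Without Dex, ZnSO4 gave no detectable difference in Nr3c1 (LFC 0.06, 95% confidence interval -0.11 to 0.23, adjusted p = 0.704). With Dex, the ZnSO4 mice lay below the water mice with no overlap, at 1202 ± 50 against 1482 ± 124 normalised counts (mean ± SD, n = 3 each). That difference had an LFC of -0.30 (SE 0.08, adjusted p = 0.0516 by edgeR) and missed the threshold, while adjusted p was 0.0122 by DESeq2, 0.047 by edgeR with a block for replicate numbers, and between 0.0615 and 0.203 without 1 library. The groups did not overlap for 25.9% of all tested genes in this comparison and for 2 of the 10 members, the other being Ncoa1. The difference between the Dex effects in ZnSO4 and in water mice, the interaction, was -0.36 on the log2 scale (SE 0.11, unadjusted p = 0.00625, adjusted p = 0.952 by edgeR).

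Nr3c2 (ENSMUSG00000031618), which encodes the mineralocorticoid receptor, fell with Dex to a smaller extent and moved with ZnSO4 in the other direction. It spans 76899442 to 77245012 on the plus strand of chromosome 8. The water + PBS mice had 713, 629 and 643 normalised counts, and the water + Dex mice had 584, 531 and 513. The ZnSO4 + PBS mice had 800, 822 and 848, and the ZnSO4 + Dex mice had 569, 595 and 708. The ZnSO4 + PBS mice stood above all others, and Dex groups lay below their PBS groups with no overlap in either drinking water. Over both waters, Nr3c2 was downregulated by Dex (LFC -0.34, SE 0.06, adjusted p = 0.00248 by edgeR), a call that held without any 1 library. Taken singly, the difference passed in ZnSO4 mice (LFC -0.40, adjusted p = 0.0122, but 0.0563 without ZnSO4 + Dex replicate 1) and missed in water mice (LFC -0.29, adjusted p = 0.076, but 0.0384 without ZnSO4 + Dex replicate 3 and up to 0.240 without another library).

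With ZnSO4, Nr3c2 was upregulated over both injections (LFC 0.26, SE 0.06, adjusted p = 0.0229 by edgeR). This call was lost without water + PBS replicate 2 or 3, water + Dex replicate 2 or 3, or ZnSO4 + PBS replicate 3, with adjusted p between 0.0513 and 0.0595. In PBS mice the LFC was 0.31 (adjusted p = 0.0739, but 0.0433 without ZnSO4 + Dex replicate 3, 0.0427 by DESeq2 and up to 0.219 without another library), and in Dex mice it was 0.20 (adjusted p = 0.261). Exons of Gm10649 on the opposite strand cover 3.82% of the exonic bases of Nr3c2, and reads there could have come from either gene.

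RefSeq promoter windows were searched for 6 of the members, Nr3c2, Fkbp4, Ptges3, Stip1, Ncoa1 and Ncor1. No window of Nr3c1, Hsp90aa1, Hsp90ab1 or Ncoa2 was searched. For Nr3c2, the member called with both treatments, the window belongs to a RefSeq start inside the span of the gene given above and not at its 5′ end. That window is shown from its first base to the last base before an annotated exon (GRCm38.p6, chr8:76902080-76902287, plus strand, 5′ to 3′), with matches to the motifs named next in capitals.
Nr3c2: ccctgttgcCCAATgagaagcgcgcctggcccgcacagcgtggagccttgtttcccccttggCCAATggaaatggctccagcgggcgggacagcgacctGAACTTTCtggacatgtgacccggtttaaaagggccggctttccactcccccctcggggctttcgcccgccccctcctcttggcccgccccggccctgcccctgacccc
Both strands of the 250 bases before each start site were searched for the heat shock element forms GAANNTTC and TTCNNGAA, the palindromic glucocorticoid response element, the metal response elements TGCACNC and TGCGCNC, and the CCAAT box (CCAAT). For Nr3c2 there was 1 match to GAANNTTC, 151 bases before the start site, 3 to the CCAAT box and 1 to TGCGCNC, which with 1 of the CCAAT boxes lies in the 42 bases not shown. Of all 32851 promoter windows, 6.69% held GAANNTTC, 7.17% TTCNNGAA, 0.387% the glucocorticoid response element, 10.4% TGCACNC, 12.5% TGCGCNC and 33.8% the CCAAT box. These matches describe the letters only and are no evidence of binding.

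The balance of the 2 receptors moved with both treatments. Per kilobase of exon, Nr3c1 stood at 3.59, 3.69 and 3.70 times the level of Nr3c2 in the water + PBS mice, and at 3.25, 3.15 and 2.82 times in the ZnSO4 + PBS mice. After Dex it stood at 2.34, 2.23 and 2.32 times in water mice and at 1.83, 1.62 and 1.45 times in ZnSO4 mice. The 4 groups did not overlap and ran from water + PBS down to ZnSO4 + Dex. The difference in the mean log2 ratio with Dex was -0.79 over 6 against 6 mice (exact permutation test within drinking waters, two-sided, p = 0.005, adjusted over the 6 ratio tests 0.0075), and the difference with ZnSO4 was -0.38 (exact permutation test within injections, p = 0.005, adjusted 0.0075). This p is the smallest that the 400 arrangements allow.

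**Figure D3:**
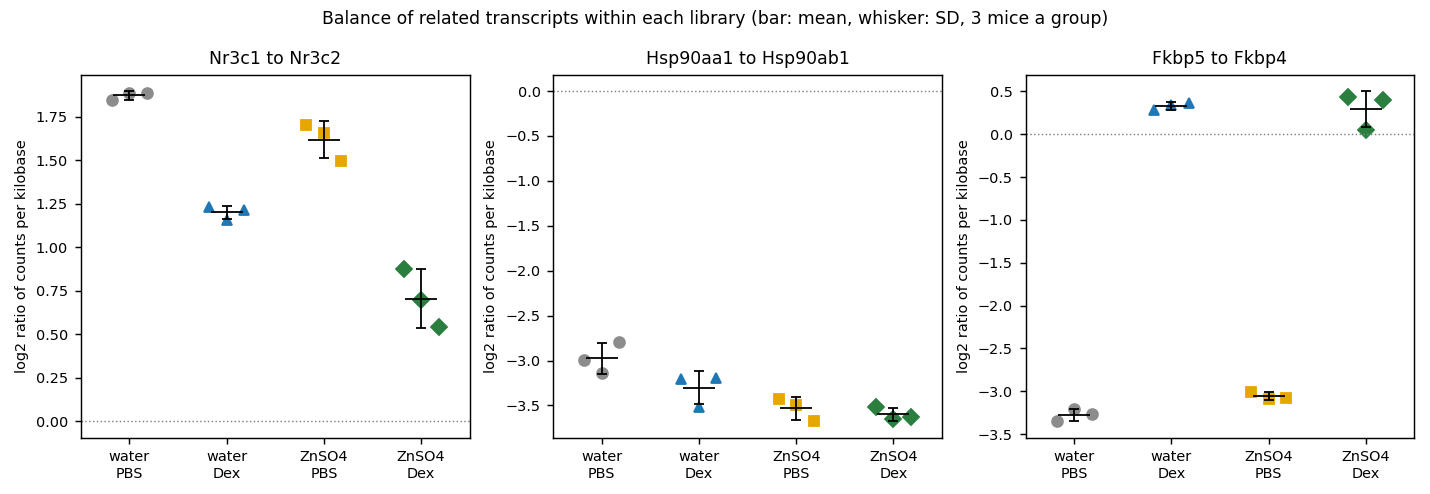
Log2 ratio of counts per kilobase (y axis) of Nr3c1 to Nr3c2, Hsp90aa1 to Hsp90ab1 and Fkbp5 to Fkbp4 in each library of the 4 groups (x axis), with the mean and SD of 3 mice and a dotted line at equal levels. The first falls from 1.87 in water + PBS to 0.70 in ZnSO4 + Dex, the second is lower in ZnSO4 mice, and the last rises from -3.28 to 0.33 with Dex in water mice.

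HSP90 was present as an abundant constitutive form, Hsp90ab1, and a heat-inducible one, Hsp90aa1, and they were called with different treatments. The constitutive Hsp90ab1 was the highest member at a mean of 373 RPKM (reads scaled to exonic length and library size), while Hsp90aa1 stood at 37.1 RPKM. Their coding sequences share 76.3% of 2175 aligned bases, with at most 33 identical bases in a row. The last 60 coding bases of each are shown because their ends encode the C-terminal peptide, common to both proteins, to which cochaperones with tetratricopeptide repeats such as STIP1 and FKBP4 dock. They lie in the last exon of each gene, at chr12:110691540-110691599 and chr17:45568015-45568074 (GRCm38, minus strand, 5′ to 3′), and capitals mark the last 15 bases before the stop codon.
Hsp90aa1: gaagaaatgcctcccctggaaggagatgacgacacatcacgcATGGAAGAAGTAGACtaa
Hsp90ab1: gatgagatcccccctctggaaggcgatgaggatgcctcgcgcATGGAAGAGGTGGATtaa

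Hsp90aa1 (ENSMUSG00000021270, chromosome 12, 110690605 to 110702728, minus strand) was lower in mice that drank ZnSO4. The water + PBS mice had 1881, 1766 and 2478 normalised counts, against 1270, 1310 and 1214 in the ZnSO4 + PBS mice. After Dex, water mice had 1924, 1472 and 1986 and ZnSO4 mice had 1719, 1573 and 1337. The PBS groups did not overlap, and the Dex groups did. Over both injections Hsp90aa1 was downregulated with ZnSO4 (LFC -0.45, SE 0.10, adjusted p = 0.0145 by edgeR), a call that held in all 12 fits without 1 library and in the other 6 fits tried for it. In PBS mice alone it was downregulated with an LFC of -0.69 (SE 0.15, adjusted p = 0.0227). That call was lost without water + PBS replicate 1 or 3 or without any of the ZnSO4 + PBS replicates 1, 2 or 3, with adjusted p between 0.0507 and 0.0917. In Dex mice the LFC was -0.22 (95% confidence interval -0.54 to 0.10, adjusted p = 0.466), and Dex gave no call for this gene in either water. The LFC with Dex was -0.19 in water mice and 0.29 in ZnSO4 mice (adjusted p = 0.496 and 0.244 by edgeR). In ZnSO4 mice the PBS and Dex groups did not overlap, as for 29.1% of all genes.

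Of all stretches of 31 bases in the exons of Hsp90aa1, 51.4% also occur in other annotated genes, 46.7% in the copy Gm12346. Since reads with more than 1 position were left out, its counts may miss an unknown share of its RNA. For Hsp90ab1, 13.2% of these stretches occur in other genes. The level of Hsp90aa1 beside other members, and its ratio to Hsp90ab1, are uncertain for the same reason. Gm12346 itself had 33.0 ± 8.4 normalised counts in water + PBS, 30.9 ± 4.9 in water + Dex, 20.7 ± 3.2 in ZnSO4 + PBS and 18.1 ± 3.0 in ZnSO4 + Dex mice (mean ± SD, n = 3), far below Hsp90aa1.

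Hsp90ab1 (ENSMUSG00000023944, chromosome 17, 45567775 to 45573271, minus strand) was the one member called higher with Dex by edgeR. Water mice had 11422, 11879 and 13132 normalised counts with PBS and 13507, 12831 and 13841 with Dex. ZnSO4 mice had 10467, 11230 and 11836 with PBS and 15018, 15083 and 12627 with Dex. The groups overlapped in water mice and did not in ZnSO4 mice. It was upregulated over both waters (LFC 0.25, SE 0.08, adjusted p = 0.0368) and in ZnSO4 mice (LFC 0.35, SE 0.11, adjusted p = 0.0497). Both calls were close to the threshold. The first was lost in 8 of 12 fits without 1 library, all but those without water + PBS replicate 3, ZnSO4 + PBS replicate 3 or ZnSO4 + Dex replicate 2 or 3 (adjusted p between 0.0664 and 0.108), and the other in 11 of 12, all but the fit without ZnSO4 + Dex replicate 3 (between 0.0582 and 0.168). With a block for replicate numbers, adjusted p was 0.058 and 0.0768, with all genes of at least 1 count 0.0981 and 0.139, and with the B cell marker level as a covariate 0.121 and 0.112. In ZnSO4 mice the call was also lost with RLE factors (0.055), with upper-quartile factors (0.0548) and with only the groups compared (0.214). By DESeq2 both were called (adjusted p = 0.0012 and 0.00212).

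The share of the inducible form was lower with ZnSO4. Per kilobase, Hsp90aa1 stood at 0.126, 0.113 and 0.144 times Hsp90ab1 in water + PBS mice, at 0.0926, 0.0890 and 0.0783 in ZnSO4 + PBS mice, at 0.109, 0.0875 and 0.109 in water + Dex mice, and at 0.0873, 0.0796 and 0.0808 in ZnSO4 + Dex mice. Every ZnSO4 mouse lay below every water mouse of its injection. The difference in the mean log2 ratio was -0.43 with ZnSO4 (exact permutation test, two-sided, p = 0.005, adjusted 0.0075). With Dex it was -0.20 (exact permutation test, p = 0.035, adjusted 0.042), which was no longer past the threshold in 9 of the 12 tests that left out 1 library, all but those without water + PBS replicate 2, ZnSO4 + PBS replicate 3 or ZnSO4 + Dex replicate 1 (exact p between 0.06 and 0.1).

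Among the cochaperones, no call was made with Dex, and 1 of 3 was called with ZnSO4. Stip1 (ENSMUSG00000024966, chromosome 19, 7020702 to 7039967, minus strand), which hands clients over from HSP70 to HSP90, had 1080, 1004 and 1356 normalised counts in water + PBS mice, 784, 806 and 771 in ZnSO4 + PBS, 976, 744 and 1074 in water + Dex, and 933, 975 and 798 in ZnSO4 + Dex mice. The ZnSO4 + PBS mice lay below the water + PBS mice with no overlap. The LFC in PBS mice was -0.54 (SE 0.14, adjusted p = 0.0517 by edgeR), just past the threshold without water + Dex replicate 2 or ZnSO4 + Dex replicate 2 (adjusted p between 0.0329 and 0.0477) and by DESeq2 (0.0101), and up to 0.161 without another library. Over both injections it was -0.29 (adjusted p = 0.0749, but 0.0263 without water + Dex replicate 2, 0.0437 by DESeq2 and up to 0.168 without another library).

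Ptges3 (ENSMUSG00000071072, chromosome 10, 128058954 to 128077272, plus strand), the gene of p23, which stabilises the closed complex of HSP90 with a receptor, had 788, 724 and 882 normalised counts in water + PBS mice, 621, 658 and 631 in ZnSO4 + PBS, 764, 599 and 738 in water + Dex, and 595, 625 and 612 in ZnSO4 + Dex mice. The PBS groups did not overlap, and after Dex only water + Dex replicate 2 fell into the range of the ZnSO4 mice. Over both injections it was downregulated with ZnSO4 (LFC -0.26, SE 0.07, adjusted p = 0.0283 by edgeR). The call was lost in 7 of 12 fits, those without water + PBS replicate 1 or 3, water + Dex replicate 1 or 3, ZnSO4 + PBS replicate 1 or 3 or ZnSO4 + Dex replicate 1 (adjusted p between 0.0567 and 0.0763), and with upper-quartile factors (0.0596). In PBS mice the LFC was -0.33 (adjusted p = 0.0811). The copy Ptges3-ps holds 20.3% of the 31-base stretches of Ptges3 and had 145 ± 21 normalised counts in water + PBS and 99.0 ± 13.6 in ZnSO4 + PBS mice.

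Fkbp4 (ENSMUSG00000030357, chromosome 6, 128429735 to 128438677, minus strand), the immunophilin FKBP52 that links the complex to transport into the nucleus, was not called in any comparison. It had 3399, 2653 and 3471 normalised counts in water + PBS mice and between 2389 and 2923 in the other 9. Its LFC was -0.27 with Dex in water mice (95% confidence interval -0.53 to -0.02, adjusted p = 0.184, but 0.0495 without water + PBS replicate 2 and up to 0.418 without another library) and 0.04 in ZnSO4 mice (-0.22 to 0.29).

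Fkbp5, which encodes FKBP51, the counterpart that takes the place of FKBP52 and lowers hormone binding, is one of the 7 check genes. It rose from 1107 ± 128 to 11191 ± 1057 normalised counts in water mice and from 1061 ± 96 to 11093 ± 1004 in ZnSO4 mice. Per kilobase, Fkbp5 stood at 0.0981 to 0.125 times Fkbp4 in the 6 PBS mice and at 1.04 to 1.35 times in the 6 Dex mice, so that the order of these immunophilins was reversed in every Dex mouse. The mean log2 ratio was higher by 3.48 with Dex (exact permutation test, two-sided, p = 0.005, adjusted 0.0075) and by 0.09 with ZnSO4 (exact permutation test, p = 0.27, adjusted 0.27). As Fkbp5 was chosen as a gene known to rise with Dex, the test with Dex is only a check of the injection. Without ZnSO4 + Dex replicate 2, which had the lowest ratio of the Dex mice, the difference with ZnSO4 was 0.15 (exact permutation test, p = 0.005).

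Hsp90aa1, Stip1 and Ptges3 varied together between mice of the same group. Over the 12 libraries, the deviations from the group means on the log2 scale correlated at r = 0.95 for Hsp90aa1 with Stip1, 0.80 with Ptges3, 0.72 with Hsp90ab1 and 0.61 with Fkbp4, as a description of libraries that share their depth and tissue sampling. Water + PBS replicate 3 was the highest of its group in all 5 genes, by 0.30 for Hsp90aa1 and 0.25 for Stip1. For Nr3c1 and Nr3c2 the deviations correlated at 0.47. The promoter window of Stip1 is shown as that of a chaperone gene in this group (GRCm38.p6, chr19:7040027-7040276, minus strand, 5′ to 3′). It held 4 CCAAT boxes, in capitals, 243, 199, 123 and 72 bases before the start site, and no match to the other motifs.
Stip1: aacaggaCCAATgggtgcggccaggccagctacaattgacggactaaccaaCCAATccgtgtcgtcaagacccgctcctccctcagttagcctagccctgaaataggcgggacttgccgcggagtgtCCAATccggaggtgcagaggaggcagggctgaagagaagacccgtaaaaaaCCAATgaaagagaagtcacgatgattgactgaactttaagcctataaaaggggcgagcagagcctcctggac

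Fkbp4 held 1 match to GAANNTTC and 1 CCAAT box, Ptges3 held 1 match to TGCGCNC, and the windows of Ncoa1 and Ncor1 held no match to any of the motifs. Both Ncor1 windows lie inside the span of the gene, and the window at 62457333 overlaps an Ncor1 exon by 147 bases. None of the 7 windows of the 6 members held the glucocorticoid response element, and Nr3c1 was not among them. Since only 0.387% of all windows held this element, its absence from so few windows says little.

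Of the coregulators, Ncoa1 was called with ZnSO4 and Ncor1 with Dex, and Ncoa2 was not called in any comparison. Ncoa2 (ENSMUSG00000005886, chromosome 1, 13139105 to 13374083, minus strand), a p160 coactivator that GR also uses at repressed genes, had between 931 and 1108 normalised counts in all 12 mice, with an LFC of -0.01 for Dex (95% confidence interval -0.13 to 0.11) and of -0.04 for ZnSO4 (-0.16 to 0.08). Ncoa1 (ENSMUSG00000020647, chromosome 12, 4247362 to 4477182, minus strand), its relative SRC-1, had 751, 668 and 642 normalised counts in water + PBS mice, 661, 642 and 634 in water + Dex, 620, 562 and 623 in ZnSO4 + PBS, and 576, 575 and 560 in ZnSO4 + Dex mice. Every ZnSO4 mouse lay below every water mouse. The share of all genes separated in this way over both injections was not counted. Within PBS mice and within Dex mice, groups did not overlap for 25.3% and 25.9% of all genes. Ncoa1 was downregulated with ZnSO4 over both injections (LFC -0.18, SE 0.05, adjusted p = 0.0375 by edgeR). This call was lost in 11 of 12 fits, all but the one without water + PBS replicate 3 (adjusted p between 0.0516 and 0.0905). It was also lost with upper-quartile factors (0.0877) or all genes of at least 1 count (0.141).

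Ncor1 (ENSMUSG00000018501, chromosome 11, 62316426 to 62458541, minus strand), the scaffold of the corepressor complex with HDAC3, had 3355, 2884 and 3385 normalised counts in water + PBS mice and 3387, 3312 and 3609 in ZnSO4 + PBS mice. With Dex it had between 2915 and 2978 in water mice and between 2525 and 2965 in ZnSO4 mice. The groups overlapped in water mice and did not in ZnSO4 mice. It was downregulated by Dex over both waters (LFC -0.21, SE 0.06, adjusted p = 0.0319 by edgeR) and in ZnSO4 mice (LFC -0.29, SE 0.09, adjusted p = 0.0428). The first call was lost in 7 of 12 fits, those without any of the 3 water + Dex mice, water + PBS replicate 1 or 3 or ZnSO4 + PBS replicate 1 or 3 (adjusted p between 0.0534 and 0.0796), and the other in 10 of 12, all but those without water + PBS replicate 1 or 2 (between 0.0532 and 0.152). With all genes of at least 1 count, adjusted p was 0.0735 and 0.0955, and in ZnSO4 mice it was 0.114 with only the groups compared and 0.0526 with the B cell covariate.

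**Figure D4:**
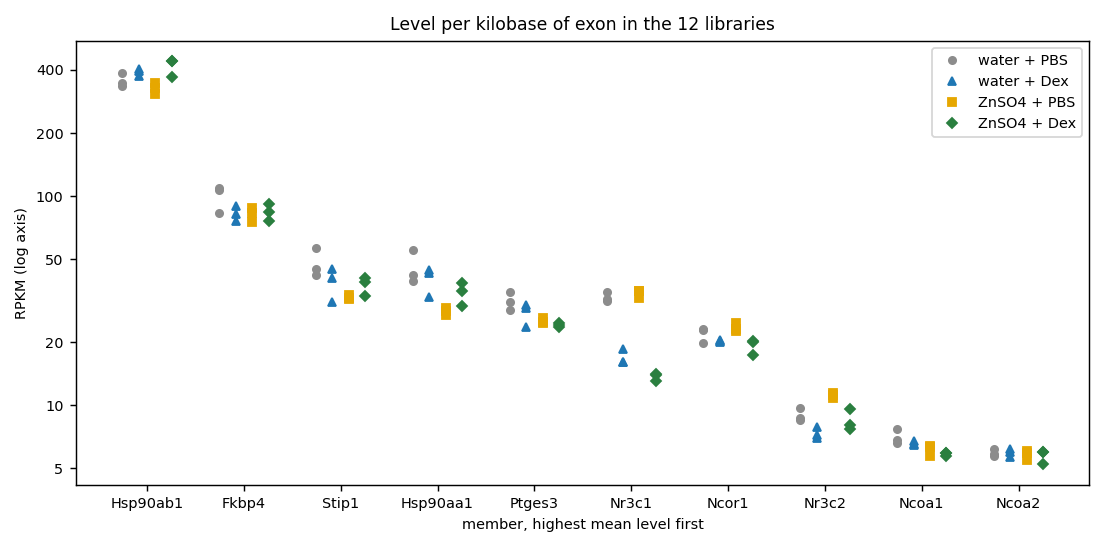
RPKM (reads scaled to exonic length and library size, y axis, log scale) of the members (x axis, in order of their mean), 1 point a library and 1 colour and shape a group. Hsp90ab1 and Fkbp4 lie above all others in every library, and Nr3c1 is spread from 13.1 to 35.3.

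In levels per length, the order over all 12 libraries was Hsp90ab1 (373 RPKM), Fkbp4 (87.1), Stip1 (39.3), Hsp90aa1 (37.1), Ptges3 (27.2), Nr3c1 (24.5), Ncor1 (21.3), Nr3c2 (9.001), Ncoa1 (6.42) and Ncoa2 (5.87). The ranges of Hsp90ab1 and Fkbp4 overlapped with no neighbour, and Ncor1 stayed above Nr3c2. From Stip1 to Ncor1, and from Nr3c2 to Ncoa2, neighbours overlapped. Nr3c1 stood at 32.9 ± 1.7 RPKM in water + PBS and 34.3 ± 1.6 in ZnSO4 + PBS mice, above Ncor1 (22.0 ± 1.9 and 23.6 ± 1.1), and at 16.9 ± 1.4 and 13.7 ± 0.6 in the Dex groups, below Ncor1 (20.3 ± 0.2 and 19.2 ± 1.7). Per length, the transcript of the receptor thus changed place with that of its corepressor in the 6 Dex mice. This order depends on the exonic lengths used, 7684 bases for Nr3c1 and 12811 for Ncor1. In normalised counts Nr3c1 lay below Ncor1 in every library, also with PBS.

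The other genes of the receptor cycle were described by 5 lists. Of all tested genes, 21.5% were called in the mean Dex effect and 12.8% in the mean ZnSO4 effect. Of 27 further chaperones and cochaperones tested, 3 were upregulated and 2 downregulated by Dex over both waters (median LFC 0.01), and 0 were called with ZnSO4 (median -0.07). Beside Fkbp5 (LFC 3.36, SE 0.09, adjusted p = 3.91e-09), the largest were Ttc4, an HSP90 cochaperone, which fell from 574 ± 41 to 433 ± 13 normalised counts in water and from 591 ± 48 to 426 ± 28 in ZnSO4 mice (LFC -0.44, adjusted p = 0.000238), and 2 less certain ones. The HSP70 partner Dnaja1 had an LFC of 0.41 (adjusted p = 0.034), kept in only 5 of the 12 fits without 1 library, those without water + PBS replicate 3, water + Dex replicate 2, ZnSO4 + PBS replicate 1 or ZnSO4 + Dex replicate 2 or 3, otherwise between 0.0687 and 0.0857, and 0.057 with the B cell covariate. The inducible HSP70 gene Hspa1b had an LFC of -1.01 (adjusted p = 0.0454) at 27.9 to 247 normalised counts, kept in only 3 fits, those without water + PBS replicate 1 or 2 or water + Dex replicate 3, otherwise between 0.0511 and 0.101, and 0.0947 with the B cell covariate. Hspa1b has a near-identical neighbour, Hspa1a, and reads that fit both were left out by the authors.

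Several coregulators outside the 10 members were called with larger LFCs. Of 19 further coactivators, 3 rose and 5 fell with Dex (median LFC -0.02, 21.5% of all genes called). With ZnSO4, 2 rose and 1 fell (median -0.12, 12.8% of all genes called). Ppargc1a, the inducible coactivator PGC-1α of mitochondrial and gluconeogenic genes, rose with both. It had 217 ± 19 normalised counts in water + PBS, 413 ± 56 in water + Dex, 369 ± 23 in ZnSO4 + PBS and 526 ± 85 in ZnSO4 + Dex mice (Dex LFC 0.72, adjusted p = 0.000183, ZnSO4 LFC 0.56, adjusted p = 0.0029). Its relative Ppargc1b fell with Dex (LFC -0.64, adjusted p = 0.00699), from 128 ± 13 to 79.9 ± 25.3 in water and from 91.2 ± 12.6 to 59.98 ± 5.43 in ZnSO4 mice. The acetyltransferase gene Kat2a rose with Dex (LFC 0.58, adjusted p = 5.17e-05), and Ncoa7 fell (LFC -0.47, adjusted p = 0.0215, but between 0.0504 and 0.0557 without water + PBS replicate 2 or ZnSO4 + Dex replicate 1, and 0.0782 with the B cell covariate). With ZnSO4, the chromatin remodeller Smarca2 rose (LFC 0.36, adjusted p = 0.00325), and Kat2b fell (LFC -0.21, adjusted p = 0.0171, but 0.0555 without water + Dex replicate 2, 0.0546 with upper-quartile factors and 0.0807 with all genes of at least 1 count).

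Of 11 further corepressors, 2 rose and 2 fell with Dex (median LFC -0.04, 21.5% of all genes called). With ZnSO4, 2 rose (median -0.02, 12.8% of all genes called). Tbl1xr1, a subunit of the same corepressor complex as Ncor1, rose from 921 ± 100 to 1778 ± 87 normalised counts in water mice and from 792 ± 76 to 1699 ± 185 in ZnSO4 mice (LFC 1.03, SE 0.08, adjusted p = 2.35e-06), while its relative Tbl1x fell (LFC -0.25, adjusted p = 0.0132). Nrip1, the ligand-dependent corepressor RIP140, rose from 1262 ± 134 to 2506 ± 81 and from 1458 ± 158 to 2557 ± 592 (LFC 0.90, SE 0.11, adjusted p = 9.52e-05). The scaffold gene Sin3a fell (LFC -0.39, adjusted p = 0.0047). With ZnSO4, Hdac1 had an LFC of 0.19 (adjusted p = 0.0312), kept in only 4 of 12 fits, those without water + PBS replicate 1, ZnSO4 + PBS replicate 2 or 3 or ZnSO4 + Dex replicate 2, otherwise between 0.0509 and 0.0768, and lost with all genes of at least 1 count (0.1005).

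Of the other steroid receptor genes, 5 of 7 had enough reads to test and 0 were called in either mean effect by edgeR. Of 14 genes of nuclear transport and turnover, 1 was called, and with both treatments (21.5% of all genes with Dex and 12.8% with ZnSO4). Xpo1, the nuclear exporter CRM1, fell with Dex (LFC -0.28, SE 0.06, adjusted p = 0.00646) and with ZnSO4 (LFC -0.29, SE 0.06, adjusted p = 0.00982). It had 1517 ± 89 normalised counts in water + PBS, 1228 ± 59 in water + Dex, 1217 ± 140 in ZnSO4 + PBS and 1019 ± 37 in ZnSO4 + Dex mice.

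**Figure D5:**
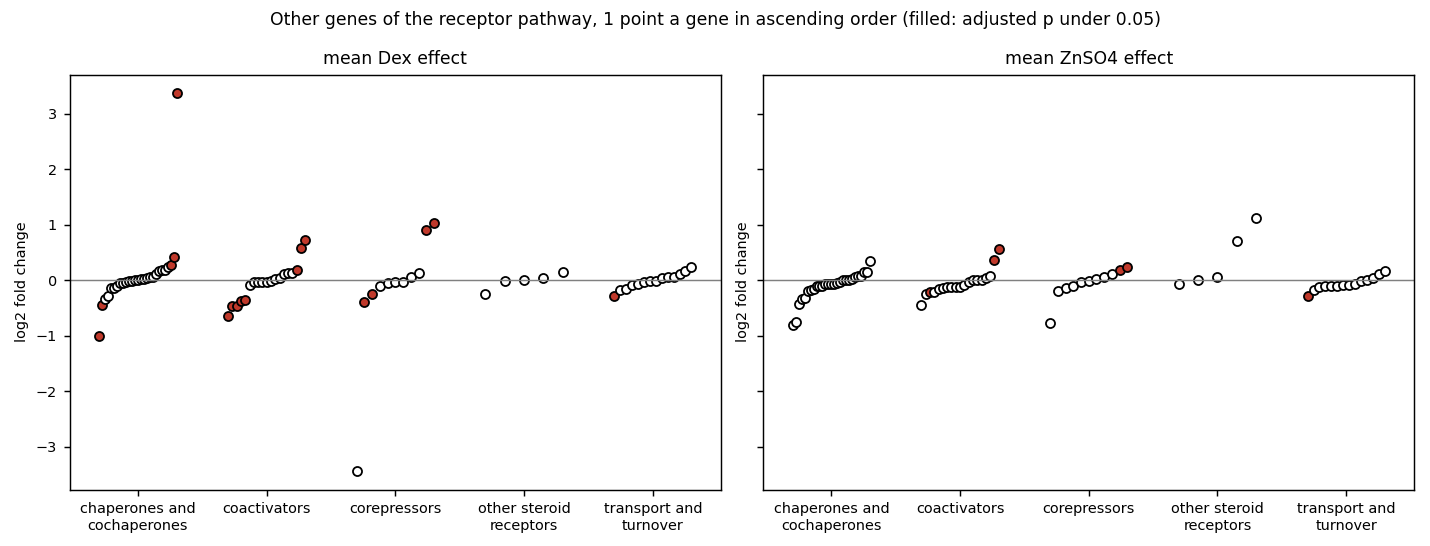
LFC (y axis) of each tested gene of the 5 lists (x axis, in ascending order within a list) for the mean Dex effect and the mean ZnSO4 effect. Filled points had adjusted p under 0.05. The highest point is Fkbp5 with Dex, at 3.36, and Tbl1xr1 and Nrip1 lead the corepressors at 1.03 and 0.90.

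The genes whose log2 CPM followed each member most closely over the 12 libraries are given as a description, since all share the same group differences. For Nr3c1 they were Sertm1 (r = 0.99), Tnrc18 (0.99), Cdkn2b (0.98), Rnf152 (0.98) and Clip2 (0.98), which had LFCs between -2.53 and -0.84 for Dex. For Nr3c2 they were 4930515G01Rik (0.96), Spsb4 (0.95), Vdac3 (0.95), Ptp4a2 (0.95) and Nceh1 (0.94). For Hsp90aa1 they were Hsph1 (0.94), Abce1 (0.93), Pinx1 (0.92), Hyou1 (0.91) and Creld2 (0.91). Hsph1 encodes a large cytosolic HSP70 relative, Hyou1 its counterpart in the endoplasmic reticulum and Creld2 another protein of that compartment. With ZnSO4, Creld2 had an LFC of -0.82 (adjusted p = 0.00114), Hyou1 of -0.70 (0.00196) and Abce1 of -0.25 (0.0124), while Hsph1 (-0.75, adjusted p = 0.0848) and Pinx1 (-0.34, 0.0517) missed the threshold.

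T cell markers were lower in the ZnSO4 mice, as Hsp90aa1 and Ptges3 were. Of 6 T cell markers, 5 fell with ZnSO4 over both injections, and of 5 plasma cell markers, 2 fell, Mzb1 (LFC -1.02, adjusted p = 0.00525) and Derl3 (LFC -0.80, adjusted p = 0.00493). The 7 B cell markers (LFC between -1.22 and -0.82) and the 6 macrophage markers (between -0.24 and -0.12) were not called. The summed plasma cell level lay between 2246 and 2323 CPM in water + PBS, between 1802 and 2461 in water + Dex, between 1361 and 2022 in ZnSO4 + PBS and between 1413 and 1980 in ZnSO4 + Dex mice, and no plasma cell marker was at 0 in any library. Some markers of other cell types were called higher with ZnSO4, as Nr3c2 was. They were 2 of 5 goblet cell markers (Muc2, LFC 0.85, and Tff3, 0.37), 2 of 5 enteroendocrine markers (Gcg, 0.60, and Pyy, 0.70), 2 of 4 endothelial markers (Tek, 0.44, and Cdh5, 0.33), 1 of 4 stem cell markers (Lgr5, 0.62), 1 of 6 smooth muscle markers (Tagln, 0.50) and 1 of 5 fibroblast markers (Pdgfra, 0.45), while 1 of 4 Paneth cell markers fell (Mmp7, -0.57). These genes were named after their values were seen. Of all tested genes, 12.8% were called in this comparison. Of the 8 enterocyte markers 0 were called (median LFC -0.0033), and the stem cell and fibroblast lists reached down to -0.0997 and -0.0156. The plasma cell and Paneth cell lists reached up to 0.0888 and 0.0744. The median summed stem cell level was 893 CPM in water + PBS, 757 in ZnSO4 + PBS, 798 in water + Dex and 848 in ZnSO4 + Dex mice. The summed enteroendocrine level lay between 182 and 216 CPM in water + PBS, 212 and 233 in water + Dex, 243 and 253 in ZnSO4 + PBS, and 264 and 340 in ZnSO4 + Dex mice. The part of these cell types in the differences of the members with ZnSO4 was not tested. With Dex, the 7 B cell markers had LFCs between -2.67 and -1.43 over both waters, and 0 were called. Their median summed level was 166 CPM in water + PBS, 28.2 in water + Dex, 86.8 in ZnSO4 + PBS and 15.7 in ZnSO4 + Dex mice. The part of B cells in the differences of the members with Dex was not tested. With the B cell marker level of each library in the model, which was thus lower with Dex too, the mean ZnSO4 effect called 4 members (12.0% of all genes). The mean Dex effect called 3 (18.9%).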

How the data were processed

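Ileum RNA of 12 mice was sequenced as stranded, single-end libraries. The authors mapped the reads to mm10 with HISAT2 2.0.4 (version from the submitters' processing notes), counted them per Ensembl gene with featureCounts without reads of more than 1 position, and deposited raw counts. The annotation release and the strand setting are not given in the sources used here, and a count on overlapping or copied genes is uncertain. The count columns carry letters for the groups, of which H was read as water.

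Counts were analysed in R 4.3.3 with edgeR 4.0.16 (limma 3.58.1) on all 12 libraries: filterByExpr by group with a minimum count of 10 (15938 of 54838 genes kept, 24517 at 0 in all libraries), TMM factors, 1 quasi-likelihood model with 4 group means, and Benjamini-Hochberg adjustment over all tested genes. Normalised counts are reads divided by the effective library size times its mean of 11377723. RPKM used exonic lengths of GENCODE vM21 (GRCm38, the assembly of mm10), which named 54723 genes. Ratios were tested by exact permutation within the other treatment (400 arrangements). Depth ranged from 10760132 to 11827487 reads. Promoters came from RefSeq (GRCm38.p6).

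The members and lists were chosen with earlier results of these data known. Named were all members, of each list up to 4 called genes with the largest LFC in size for each mean effect, and the 5 genes with the highest Pearson correlation to Nr3c1, Nr3c2 and Hsp90aa1. The values of 1 called list gene are not reported here. Pairs of libraries within a group differed by more than sampling noise (their chi-square statistics were 8.30 to 45.3 times the degrees of freedom). The replicate numbers gave no sign of pairing the libraries. The median correlation of deviations was -0.06 for 18 pairs with the same number (range -0.36 to 0.46). It was 0.02 for 36 pairs with different numbers (-0.47 to 0.44). Ranges this wide cannot exclude a pairing. Tested on simulated data over 15938 genes, the procedure recovered 73% of genes changed by 1 on the log2 scale and 16% of those changed by 0.5 with Dex in water mice, and 75% and 9% with ZnSO4 in PBS mice. Alternatives were DESeq2 1.42.0, RLE and upper-quartile factors, all genes with at least 1 count, a replicate block, only the groups compared, an added LFC cut-off of 0.8, each library left out, and, added after the markers had been seen, the B cell marker level (log2 of the summed CPM) as a covariate.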

Additional observations from a re-analysis of the deposited data

Results flagged for a closer look

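Hsp90aa1 and Stip1 were picked out because Dex went with opposite directions in the 2 drinking waters. For both genes, all 3 water + Dex mice lay below the mean of the water + PBS mice, and all 3 ZnSO4 + Dex mice lay above the mean of the ZnSO4 + PBS mice. The water + PBS mean was raised by replicate 3, at 2478 normalised counts for Hsp90aa1 and 1356 for Stip1, and the groups overlapped in water mice for both genes. In ZnSO4 mice they overlapped for Stip1 only. Without 1 library, the LFC of Hsp90aa1 with Dex in water mice ranged from -0.28 to -0.0235. The difference between the Dex effects was 0.47 on the log2 scale for Hsp90aa1 (SE 0.21, unadjusted p = 0.0413, adjusted p = 0.952 by edgeR) and 0.50 for Stip1 (SE 0.20, unadjusted p = 0.0289, adjusted p = 0.952 by edgeR). Neither passed the threshold over all genes. Single samples were not tested for their distance from the others, since each group held 3 mice.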

How the results depend on the processing

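Of 1516 values of single genes under other settings, 1353 kept their direction and their side of the threshold, 118 lost a call, 12 gained one and 33 changed sign. The Dex calls of Nr3c1, the mean Dex call of Nr3c2, the mean ZnSO4 call of Hsp90aa1 and the ratio of Nr3c1 to Nr3c2 kept theirs in every fit without 1 library. The counts of called members were less stable. With an LFC over 0.8 in size as well, 1 member was called with Dex in ZnSO4 mice and 1 in the mean Dex effect, and 0 with ZnSO4 in PBS mice and 0 in the mean ZnSO4 effect. With all genes of at least 1 count, 2 were called with Dex in ZnSO4 mice (6.42% of all genes), 2 in the mean Dex effect (10.4%) and 2 with ZnSO4 in PBS mice (2.05%). With only the groups compared (9.23% of all genes), or with the B cell covariate (12.98%), 2 were called with Dex in ZnSO4 mice, with upper-quartile factors 2 in the mean ZnSO4 effect (13.5%), and with DESeq2 3 with ZnSO4 in PBS mice (7.04%) and 1 with ZnSO4 in Dex mice (7.43%). The replicate block called 1 member with ZnSO4 in Dex mice (Nr3c1, with 3.802% of all genes), 3 with Dex in ZnSO4 mice (12.6%) and 3 in the mean Dex effect (19.9%). Correlations of deviations ranged from -0.36 to 0.46 for pairs of libraries with the same replicate number. For pairs with different numbers they ranged from -0.47 to 0.44. Whether the replicate numbers pair the libraries was not tested further. No blocked test of the ratios was run, since in this balanced design a block leaves a difference of group means (-0.79 for Nr3c1 to Nr3c2 with Dex) as it is. DESeq2 also called 5 in the mean ZnSO4 effect (15.1%). The cause of these shifts was not tested.

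Without 1 library, the share of all genes called ranged from 5.76% to 11.4% with Dex in water mice, 9.18% to 13.4% with Dex in ZnSO4 mice, 16.9% to 20.98% in the mean Dex effect, 1.74% to 6.19% with ZnSO4 in PBS mice and 8.58% to 12.4% in the mean ZnSO4 effect. In these fits, 1 to 2 members were called with Dex in water mice (2 without water + PBS replicate 2 or ZnSO4 + Dex replicate 3) and 1 to 3 with Dex in ZnSO4 mice (1 without ZnSO4 + Dex replicate 1, 3 without water + PBS replicate 1 or 2 or ZnSO4 + Dex replicate 3, otherwise 2). In the mean Dex effect 2 to 4 were called (2 without any water + Dex mouse, water + PBS replicate 1 or ZnSO4 + PBS replicate 1). With ZnSO4 in PBS mice 0 to 2 were called (0 without water + PBS replicate 1 or 3 or any ZnSO4 + PBS mouse, 2 without water + Dex replicate 2 or ZnSO4 + Dex replicate 2 or 3), and in the mean ZnSO4 effect 1 to 3 (1 without water + Dex replicate 3 or ZnSO4 + PBS replicate 3, 3 without water + Dex replicate 2, ZnSO4 + PBS replicate 2 or ZnSO4 + Dex replicate 2 or 3, otherwise 2). The ratio of Hsp90aa1 to Hsp90ab1 ranged from -0.24 to -0.14 for Dex, and that of Fkbp5 to Fkbp4 from 0.0566 to 0.153 for ZnSO4.

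Signs changed only for values near 0. Without 1 library, the LFC of Fkbp4 ranged from -0.0325 to 0.0997 (Dex in ZnSO4 mice) and from -0.0464 to 0.0873 (ZnSO4 in Dex mice), and with the B cell covariate it was -0.0442 and -0.0237. For Ncoa2 it ranged from -0.0411 to 0.0338 (Dex in water mice, -0.012 with upper-quartile factors), -0.0661 to 0.0391 (Dex in ZnSO4 mice), -0.0405 to 0.0219 (mean Dex, 0.0071 with the B cell covariate), -0.0533 to 0.0242 (ZnSO4 in PBS mice) and -0.0894 to 0.0082 (ZnSO4 in Dex mice). Stip1 ranged from -0.121 to 0.0167 (mean Dex) and from -0.177 to 0.0724 (ZnSO4 in Dex mice, 0.0014 with upper-quartile factors), Hsp90aa1 from -0.0014 to 0.131 (mean Dex), Hsp90ab1 from -0.0374 to 0.0236 (mean ZnSO4, 0.0205 with upper-quartile factors) and Ncor1 from -0.0252 to 0.0461 (mean ZnSO4). Of genes changed by 0.5 on the log2 scale in simulated data, at most 16% were recovered with 3 mice a group.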
